A study of Mus musculus with 6 samples.

Results

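The immunity-related GTPases (IRG family) were taken as 7 listed mouse genes, Iigp1, Igtp, Irgm1, Irgm2, Tgtp1, Gm12250 and Gm4951, of which 4 could be read on their own among 19938 tested genes. The members were chosen by their difference between the groups, that is, by the array levels of the same KO188 and WT samples, so the values of the 7 genes in this comparison are a description and were not tested. A gene was read from probe sets that the platform annotation pairs with 1 symbol only, which holds for Iigp1, Irgm1, Gm12250 and Gm4951, each with 1 such probe set. Igtp and Irgm2 share a probe set, and both probe sets of Tgtp1 also name Tgtp2, so these 3 members have no value of their own. The samples were bone marrow stromal cells (BMSCs), adherent marrow cells that can form bone or fat, from mice without the microRNA miR-188 (KO188, 3 arrays) and from wild-type mice (WT, 3 arrays). All mice were C57BL/6 and 6 months old. Cells of both groups grew under the same bone-forming conditions, an osteogenic medium that held ascorbate-2-phosphate (0.05 mM), beta-glycerophosphate (10 mM) and dexamethasone (100 nM). RNA was read on Affymetrix arrays, and every level below is a log2 signal per probe set, so that a step of 1 is a doubling.

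IRG proteins are interferon-induced GTPases of the cell's own defence against bacteria and protozoa that live inside vacuoles. The effector members, Iigp1 (Irga6), Tgtp1 (Irgb6) and Gm12250 (Irgb10), load onto the vacuole of organisms such as Toxoplasma gondii and break its membrane. The regulatory members, Irgm1, Irgm2 and Igtp (Irgm3), sit on the cell's own membranes and keep the effectors inactive there. Mice carry a large family, whereas in humans it is much reduced. Interferon acts on these genes through STAT and IRF factors, which bind the interferon-stimulated response element (ISRE) and the gamma-activated site (GAS).

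The labels name no allele and speak of biological replicates, but not of whether each had its own mouse or culture, so the p-values measure only the spread between these samples. No label names a batch that holds both groups, and genotype cannot be told apart from a culture difference shared by the KO188 samples. The array medians lay between 7.43 and 7.50. Mir188, the targeted gene, read 7.08 in KO188 and 7.15 in WT (log2 change -0.06, limma adjusted p = 0.24), and the sources do not give which part of the locus this probe set reads. Over all genes, 29.8% of those tested were called, 13.3% higher and 16.5% lower in KO188 (limma, Benjamini-Hochberg adjusted p under 0.05). These shares are the background for every count of calls below. The stromal collagen gene Col1a1 read 13.11 in KO188 and 12.90 in WT, and Pdgfrb, a receptor of mesenchymal cells, read 12.49 in KO188 and 12.34 in WT. Lepr, a receptor of marrow stroma in the animal, read 5.12 in KO188 and 5.18 in WT, below the receptor guide of 6.73. This guide to the level of unexpressed genes is the 95th percentile over 1190 receptor genes of smell and pheromone sensing.

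The start regions of 6 IRG genes of chromosome 11 are shown because interferon motifs lie in the bases just before the start, an ISRE core in all 6 and a GAS core in all but Irgm1. Each line gives the 120 bases before the RefSeq start of the gene (GRCm38.p6), 5′ to 3′ in the direction of the gene, with ISRE cores (GAAA, any 2 bases, GAAA, searched on both strands) and GAS cores (TTCNNNGAA, the same on both strands) in capitals. In Irgm1 2 overlapping ISRE cores run together.
Irgm1: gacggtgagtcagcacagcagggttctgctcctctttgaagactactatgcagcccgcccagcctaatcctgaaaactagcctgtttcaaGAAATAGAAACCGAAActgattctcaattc
Irgm2: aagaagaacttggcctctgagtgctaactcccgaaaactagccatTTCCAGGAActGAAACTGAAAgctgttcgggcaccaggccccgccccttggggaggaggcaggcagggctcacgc
Igtp: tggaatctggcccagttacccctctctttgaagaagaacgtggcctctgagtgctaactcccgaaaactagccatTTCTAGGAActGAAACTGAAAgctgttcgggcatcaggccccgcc
Tgtp1: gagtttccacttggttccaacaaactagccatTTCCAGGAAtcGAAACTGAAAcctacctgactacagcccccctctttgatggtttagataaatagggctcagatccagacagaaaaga
Gm12250: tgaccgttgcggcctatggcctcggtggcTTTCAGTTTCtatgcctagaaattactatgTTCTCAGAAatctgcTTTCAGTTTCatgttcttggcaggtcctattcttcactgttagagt
Gm12185: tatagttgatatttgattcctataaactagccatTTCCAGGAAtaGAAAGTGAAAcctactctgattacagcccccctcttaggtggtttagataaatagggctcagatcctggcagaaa

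These stretches are chr11:48871421-48871540 on the minus strand for Irgm1, chr11:58214857-58214976 on the plus strand for Irgm2 and chr11:58199436-58199555 on the plus strand for Igtp. They are chr11:48992247-48992366 on the minus strand for Tgtp1, chr11:58183723-58183842 on the plus strand for Gm12250 and chr11:48927183-48927302 on the minus strand for Gm12185, an IRG gene outside the member list. The searched window ran from 250 bases before the start to 50 bases after it. All 5 members with a window, Irgm1, Irgm2, Igtp, Tgtp1 and Gm12250, held an ISRE core, against 3.44% of 32851 mouse windows of this length. A GAS core was present in 4 of the 5, against 8.3% of all windows, and was not matched in Irgm1. Gm12250 held 2 ISRE cores on the strand opposite to the gene, with the GAS core between them. Windows of Iigp1 and Gm4951, on chromosome 18, were not used here.

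In Irgm2, Igtp and Tgtp1 the GAS core stood 2 bases before the ISRE core, reading in the direction of the gene. The same order and spacing occurred in 5 of the 32851 windows (0.0152%), and the 5 genes were Irgm2, Igtp, Tgtp1, Tgtp2 and Gm12185. The search for this arrangement was added after the sequences were seen, and these genes are close relatives of each other in sequence, so the 5 windows are not independent. Counted from the start, the first base of the ISRE core was at -34 in Igtp, -64 in Irgm2 and -77 in Tgtp1, as the map of motif positions shows. Of the 7 other IRG genes with a window, 3 held an ISRE core: Tgtp2 and Gm12185 before the start, and 9930111J21Rik1 after it. A match is a match of letters and not evidence of binding.

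**Figure D1:**
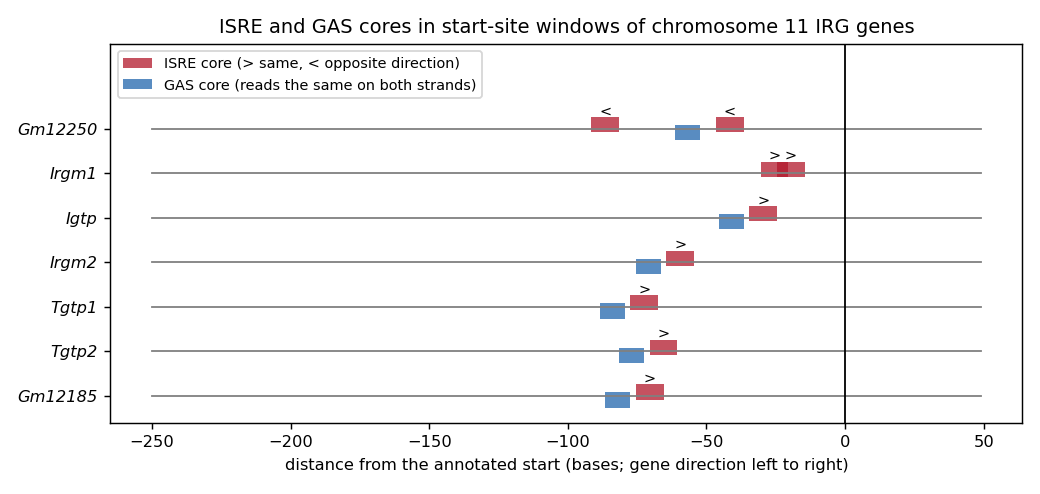
Positions of ISRE cores (red) and GAS cores (blue) along the start-site windows of 7 IRG genes on chromosome 11, in bases from the annotated start (black line), with arrows for the strand of each ISRE core. The GAS core sits directly before the ISRE core in Igtp, Irgm2, Tgtp1, Tgtp2 and Gm12185, while Gm12250 holds 2 ISRE cores on the opposite strand and Irgm1 an overlapping pair.

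The 4 members that could be read all had higher levels in KO188. Their log2 differences ran from 1.43 to 4.62 and had the median 3.73 (13.2-fold). The median over all tested genes was -0.01 and their 95th percentile 0.33. In each of the 4 genes every KO188 array lay above every WT array, a pattern that 18.8% of all tested genes showed in this direction and 22.7% in the other. All 4 differed by at least 1 on the log2 scale, beside 1.1% of all tested genes, and 3 of the 4 by at least 2 (4-fold), beside 0.436%. Nothing is read from these shares, since the members were chosen for this comparison. The levels come from RNA of whole cultures, in which fewer cells of a type and less RNA per cell cannot be told apart.

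Gm12250, the effector also called Irgb10, had the largest difference of the 4. It read 12.09, 12.03 and 11.95 in the KO188 arrays, against 7.31, 7.49 and 7.40 in the WT arrays. The means were 12.02 ± 0.07 in KO188 and 7.40 ± 0.09 in WT (SD, n = 3 each), a difference of 4.62 (SE 0.057, 24.6-fold), the third highest of the 19938 tested genes. The WT arrays lay only 0.67 above the receptor guide, where array signals are compressed, so the fold is inexact and may be understated.

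Gm4951, which RefSeq also lists as Ifgga2, and Iigp1 moved by nearly the same amount. Gm4951 read 12.11, 12.08 and 12.08 in KO188, against 8.47, 8.14 and 8.37 in WT, a difference of 3.76 (SE 0.080, 13.6-fold). Iigp1, the effector Irga6, read 11.95, 11.89 and 11.98 in KO188, against 8.11, 8.40 and 8.24 in WT, a difference of 3.69 (SE 0.072, 12.9-fold). These genes ranked 8 and 11 by change among all tested genes. In both the gap between the lowest KO188 array and the highest WT array was several log2 units, at 3.61 for Gm4951 and 3.49 for Iigp1.

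Irgm1, the regulatory member read on its own, had the smallest difference. It read 13.15, 13.11 and 13.13 in KO188, against 11.72, 11.70 and 11.67 in WT. The means were 13.13 ± 0.02 in KO188 and 11.70 ± 0.03 in WT (SD, n = 3 each), a difference of 1.43 (SE 0.027, 2.70-fold) and rank 137 of all tested genes. Wild-type cells thus held a clear Irgm1 signal, 4.97 above the receptor guide, while the other 3 members lay 0.67 to 1.60 above it. Levels of different probe sets are not on a common scale, so these distances to the guide do not rank the genes by amount of transcript.

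Gm4951, Iigp1 and Gm12250 varied more between the WT arrays than between the KO188 arrays. The range over 3 arrays was 0.33 for Gm4951, 0.29 for Iigp1 and 0.19 for Gm12250 in WT, and 0.03, 0.09 and 0.14 for the same genes in KO188. For Irgm1 it was 0.05 in WT and 0.04 in KO188. The pattern was not particular to the members. It was also seen in Gm4841 (0.41 in WT, 0.08 in KO188), Gm12185 (0.37 and 0.14) and Gbp5 (0.61 and 0.06), but not in Ifit1 (0.02 and 0.04). The WT arrays did not order the genes alike: WT replicate 2 was the highest of the 3 for Iigp1 and Gm12250 and the lowest for Gm4951. Over all tested genes the median SD was 0.048 in KO188 and 0.039 in WT.

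The probe set that names both Irgm2 and Igtp (10376326) read 12.24, 12.23 and 12.23 in KO188, against 9.04, 9.19 and 9.06 in WT, a difference of 3.14. Igtp and Irgm2 are neighbouring genes, and the signal cannot be divided between them. Both probe sets that name Tgtp1 and Tgtp2 were also higher in KO188. Probe set 10385518 read 13.07, 13.06 and 13.05 in KO188, against 10.81, 10.84 and 10.79 in WT, a difference of 2.25. Probe set 10385533 read 13.06, 13.03 and 13.06 in KO188, against 10.96, 11.12 and 10.96 in WT, a difference of 2.03. No KO188 array overlapped a WT array on any of these 3 probe sets. Of the tested genes, 18.8% showed this pattern in the same direction, a share that leaves out probe sets with several symbols. Each of the 7 members is thus named by at least 1 probe set with a higher signal in KO188, and nothing is read from this.

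**Figure D2:**
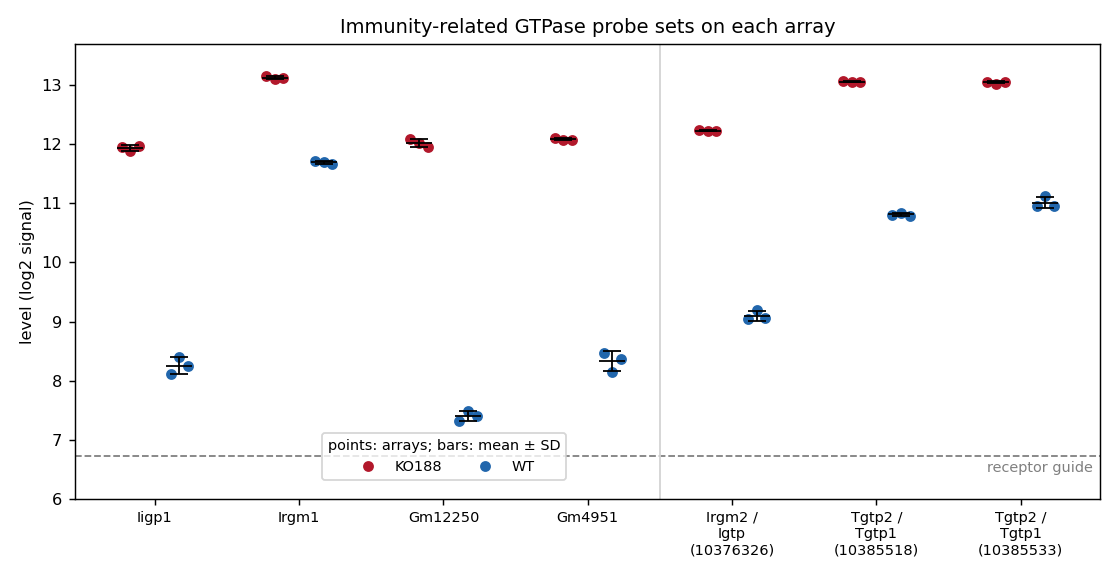
Level (log2 signal) on each KO188 array (red) and WT array (blue) for the 4 members read on their own, left of the grey line, and for the 3 probe sets shared by 2 genes, right of it; bars are means ± SD of 3 arrays and the dashed line is the receptor guide of 6.73. The KO188 points lie between 11.89 and 13.15 and the WT points between 7.31 and 11.72, with no overlap for any probe set. In 18.8% of all tested genes every KO188 array likewise lay above every WT array.

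Among the other IRG genes the outcome was split. Of 12 listed genes 4 were read on their own, 2 rose and 2 did not pass the test (median change 1.28). Gm12185 read 9.21, 9.23 and 9.09 in KO188, against 6.25, 6.62 and 6.57 in WT, a rise of 2.69 (limma adjusted p = 6.7e-06). In WT it was under the guide, and the size of the rise is inexact. Gm4841 read 9.84, 9.92 and 9.86 in KO188, against 7.11, 7.52 and 7.38 in WT, a rise of 2.54 (limma adjusted p = 8.1e-06). The WT mean of Gm4841, 7.34, was close to the guide, so this size is inexact too. Gm12185 and Gm4841 kept their call in every alternative in which they were tested.

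The remaining pair belongs to the family by sequence. Irgc1, known mainly from the testis, read 6.82, 6.74 and 6.75 in KO188, against 6.71, 6.75 and 6.78 in WT, a log2 change of 0.03 (limma adjusted p = 0.64) close to the receptor guide. Irgq read 7.24, 7.52 and 7.49 in KO188, against 7.49, 7.49 and 7.54 in WT, a log2 change of -0.09 (limma adjusted p = 0.44). The groups overlapped for both genes.

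**Figure D3:**
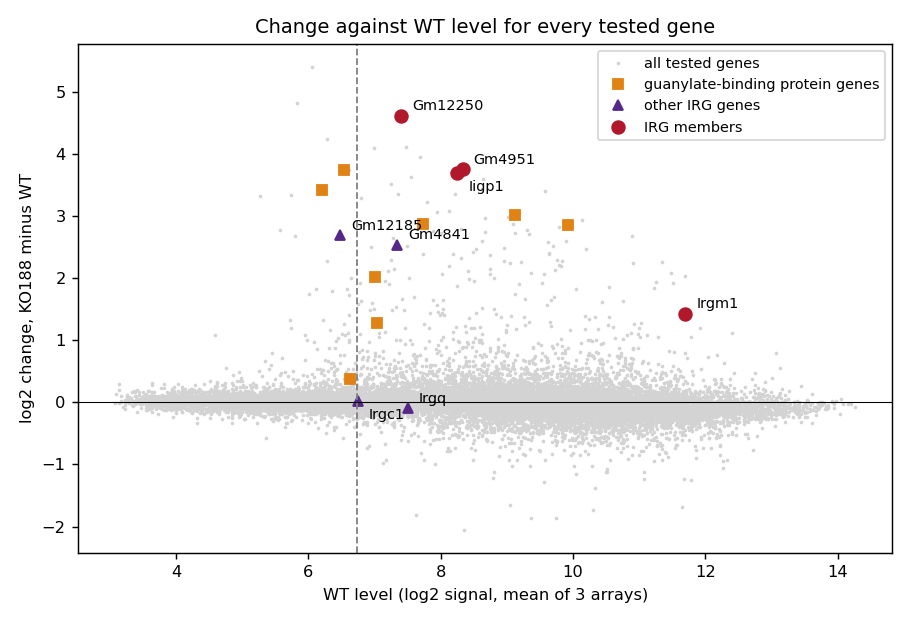
Log2 change (KO188 minus WT) against the WT level (log2 signal, mean of 3 arrays) for all 19938 tested genes (grey), the 4 members (red circles), the 4 other IRG genes (purple triangles) and 8 guanylate-binding protein genes (orange squares); the dashed line is the receptor guide. Gm12250, Gm4951 and Iigp1 lie at 3.69 to 4.62, Irgm1 lies at 1.43, and Irgc1 and Irgq near 0.

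The members and most other listed IRG genes stand in 3 groups in the mouse genome (RefSeq, GRCm38.p6), while Irgc1 and Irgq lie on chromosome 7. On chromosome 11, 8 of the 9 coding genes from Irgm1 to Ifi47 are listed IRG genes, and a second group consists of Gm12250, Igtp and Irgm2 side by side. On chromosome 18 the 4 consecutive coding genes from Gm4951 to Iigp1 are all IRG genes, with Gm4841 among them. The nearest 3 tested genes on each side of the 3 groups were then read, a rule added after the members' values were seen. Of these 18 neighbours 3 rose, 1 fell and 14 did not pass, beside 13.3% higher and 16.5% lower of all tested genes. The changes of the neighbours lay between -0.31 and 0.16 (median -0.02). Trim7, Olfr1396, Minar2 and Adamts19 had means under the receptor guide in both groups. Chsy3 (6.86 in KO188, 6.96 in WT) and 4930438A08Rik (6.96 in both) lay just above it. Changes of such dim genes would be compressed, so these neighbours say little about where the difference ends.

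The neighbours that passed were small in size of change beside the IRG genes. Smim3 fell by 0.31 (limma adjusted p = 0.0026), while Dctn4, a dynactin subunit gene, rose by 0.16 (limma adjusted p = 0.011). Rbm22, a splicing factor gene, rose by 0.11 (limma adjusted p = 0.020), a call lost in 5 of 16 alternatives. Smim3, Dctn4 and Rbm22 all lie on the far side of Iigp1. Zfp672, beyond Irgm2, rose by 0.14 (limma adjusted p = 0.039), a call lost in 9 of 16 alternatives. The count of neighbours that rose was 1 without KO188 replicate 2, WT replicate 1 or WT replicate 2. Trim7 and Trim41, which lie before Irgm1, changed by -0.08 (adjusted p = 0.14) and 0.14 (adjusted p = 0.058) in limma and did not pass.

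**Figure D4:**
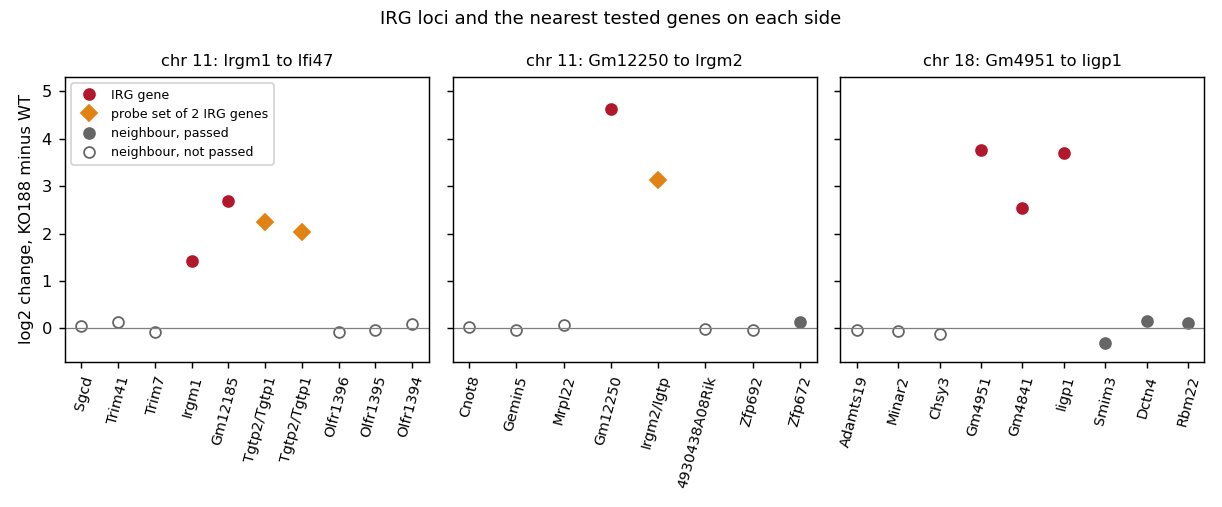
Log2 change (KO188 minus WT) of IRG genes (red), of the 3 shared probe sets that name a member (orange diamonds) and of the nearest 3 tested genes on each side (grey, filled where limma's test was passed), in genome order for the 3 IRG loci. The IRG signals plotted lie between 1.43 and 4.62, the shared probe sets of 9930111J21Rik1 and 9930111J21Rik2 (1.34 and 1.29) and of Ifi47 (2.49) are not drawn, and the neighbours between -0.31 and 0.16.

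The genes closest to each member over the 6 arrays were then listed. Closeness was the root mean square distance between gene-centred values, so it reflects mainly the size of the group difference. For Iigp1 the nearest were Mx2, an antiviral dynamin-like GTPase gene (distance 0.08), the transcription factor gene Irf7 (0.13) and the chemokine gene Cxcl9 (0.13). For Gm4951 the same genes came nearest, Cxcl9 at 0.09, Irf7 at 0.11 and Mx2 at 0.12, each nearer than its fellow member Iigp1 at 0.18. For Gm12250 they were Mx1 (0.14), Ifi206 (0.23) and Oas2 (0.26). For Irgm1 they were the aminopeptidase gene Anpep (0.02), Trp53inp1, a p53-induced gene (0.03), and Ddx58, the gene of the RNA sensor RIG-I (0.03). Irgm1 was 1.13 to 1.60 away from the other 3 members.

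The guanylate-binding proteins (GBPs), larger interferon-induced GTPases that act on the same vacuoles, were read beside the IRG genes. Of 8 GBP genes measured on their own, 7 rose and 1, Gbp2b, did not pass (limma adjusted p = 0.054). The median change was 2.87 (range 0.38 to 3.75). With 1 array left out in turn, the count that rose ran from 7 to 8, so Gbp2b passed in some of these fits. In WT, Gbp4 (6.53), Gbp5 (6.21) and Gbp2b (6.63) were under the guide, and Gbp11 (7.01) and Gbp8 (7.04) were close to it. Their sizes are inexact, among them the largest, 3.75 for Gbp4. Gbp3 rose 8.10-fold (limma adjusted p = 2.6e-08) and Gbp7 rose 7.28-fold (limma adjusted p = 4.3e-08), both from WT levels well above the receptor guide. Gbp11 rose 4.06-fold (limma adjusted p = 2.3e-06) and Gbp9 rose 7.32-fold (limma adjusted p = 3.5e-06). The change of the 4 IRG members (1.43 to 4.62) and that of the GBP genes overlap, and their difference was not tested.

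The genes that carry interferon gamma signals to IRG genes were read as a list. Of 6 measured genes 2 rose, 1 fell and 3 did not pass (median -0.01), beside 13.3% higher and 16.5% lower of all tested genes. Irf1, an interferon-induced transcription factor gene, read 11.28, 11.27 and 11.24 in KO188, against 10.24, 10.27 and 10.26 in WT (change 1.01, limma adjusted p = 9.3e-07). Irf1 kept its call in all 16 alternatives, but its change ran from 0.70 to 1.02, so its size depends on the processing. The kinase gene Jak2 rose by 0.77 (adjusted p = 5.8e-06), and the receptor chain gene Ifngr2 fell by 0.15 (adjusted p = 0.0049) in the same limma fit. Ifngr1 (-0.03, adjusted p = 0.58) and Jak1 (0.02, adjusted p = 0.66) did not pass limma's test. Ifng itself read 6.79, 6.94 and 6.79 in KO188, against 6.90, 6.89 and 6.99 in WT (change -0.09, limma adjusted p = 0.25), near the receptor guide in both groups.

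On the type I interferon side 5 of 9 genes rose, 1 fell and 3 did not pass (median 1.16). The transcription factor genes Irf7, Stat2 and Irf9, the last 2 of which encode parts of a complex that binds the ISRE, rose by 3.59 (limma adjusted p = 2.9e-08), 2.41 (2.9e-07) and 1.39 (5.0e-07). The ligand gene Ifnb1 read 7.46, 7.53 and 7.44 in KO188, against 6.28, 6.31 and 6.36 in WT (change 1.16, limma adjusted p = 3.3e-06). The ligand gene Ifna4 read 8.16, 7.85 and 7.82 in KO188, against 6.01, 6.11 and 6.26 in WT (change 1.82, limma adjusted p = 4.6e-05). The groups did not overlap for either ligand. Both had WT levels under the guide, which leaves the sizes inexact. Ifna4 has close relatives whose transcripts could share its probes. The receptor gene Ifnar1 fell by 0.14 (limma adjusted p = 0.039), a call lost without KO188 replicate 2 or 3 or WT replicate 1 or 3, while Ifnar2 (0.03), Tyk2 (0.07) and Irf3 (0.04) did not pass.

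Target genes were read as a type I-leaning and a gamma-leaning list. Of 15 measured type I-leaning targets all rose, by 1.86 to 4.82 (median 2.68), among them Oas2 (17.2-fold, limma adjusted p = 2.0e-08), Mx2 (13.4-fold, 2.6e-08), Usp18 (6.40-fold, 2.7e-08) and Oasl1 (5.75-fold, 2.9e-08). Mx2 (6.62) and Mx1 (5.83), which had the change of 4.82, were under the guide in WT, and their sizes are inexact. This list largely repeats genes already known to be higher in these samples and is no separate support. Of 14 measured gamma-leaning targets 4 rose, 1 fell and 9 did not pass (median 0.02). Those that rose were the chemokine genes Cxcl9 (12.4-fold) and Cxcl10 (4.09-fold), Cd274, the gene of the checkpoint ligand PD-L1 (8.40-fold), and Socs1, a feedback inhibitor gene (1.66-fold). The antigen presentation gene Cd74 fell by 0.29 (limma adjusted p = 0.0030). Ciita, the master regulator of class II antigen presentation, read 6.84 in KO188 and 6.80 in WT (limma adjusted p = 0.49), and the class II genes H2-Aa (0.00), H2-Ab1 (0.00) and H2-Eb1 (-0.03) did not pass. Of the 14 genes 4, H2-Aa, H2-Ab1, Ido1 and Ubd, had mean levels at or below the receptor guide, where a change would be compressed. Ciita, Irf8 (7.16 in KO188, 7.15 in WT) and Fcgr1 (7.28 in KO188, 7.25 in WT) were close to the guide. Most genes of this list that did not pass were thus dim, which limits the contrast with the type I-leaning list.

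**Figure D5:**
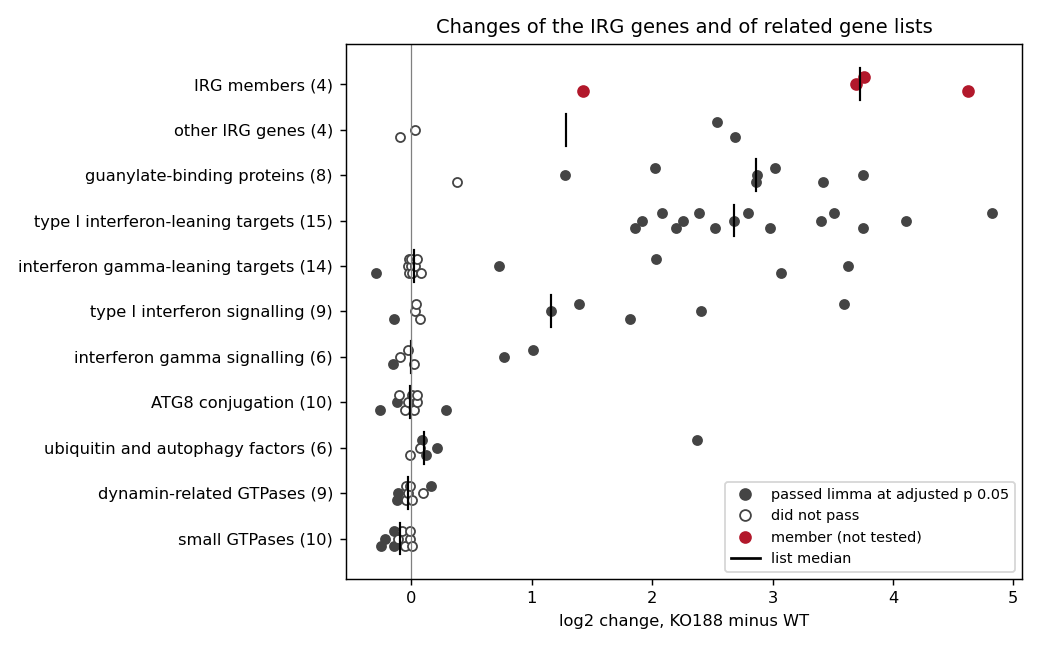
Log2 change (KO188 minus WT) of each measured gene in 11 lists, with the number of genes in brackets; filled circles mark genes with a limma adjusted p under 0.05, open circles the rest, red circles are the untested members and vertical bars are list medians. The IRG members, GBP genes and type I-leaning targets lie mostly above 1, whereas the listed ATG8 conjugation genes, dynamin-related and small GTPases lie near 0. Mx1 and Mx2, dynamin-like GTPase genes, are drawn with the type I-leaning targets.

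Host factors that act with IRG proteins at membranes were read next. Members of the ATG8 conjugation machinery, which is needed for the correct targeting of IRG proteins, rose in 1 and fell in 2 of 10 genes, with a median of -0.01. Over all tested genes 13.3% were called higher and 16.5% lower in KO188. Atg16l1 rose by 0.29 (limma adjusted p = 7.3e-04), and Atg5 fell by 0.26 (limma adjusted p = 0.010). Gabarapl2, an ATG8 protein gene, fell by 0.12 (limma adjusted p = 0.029), a call lost in 7 of 16 alternatives. Without KO188 replicate 2 or 3 or WT replicate 1 or 3, 1 gene of the 10 fell. Of 6 ubiquitin and autophagy factors 4 rose, led by the interferon-induced ubiquitin ligase gene Trim21 (5.17-fold, limma adjusted p = 6.7e-07). The ligase gene Traf6 rose by 0.21 (adjusted p = 0.0018), and Nbr1 (0.12) and Ulk1 (0.09) rose less, with calls lost in 3 and 8 of 16 alternatives; without WT replicate 2 the count that rose was 2.

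GTPases of other families served as a comparison, beside 13.3% of all tested genes called higher and 16.5% called lower. The dynamin-related list leaves out the dynamin-like genes Mx1 and Mx2, which rose by 4.82 and 3.75 and were counted among the type I-leaning targets. Of 9 dynamin-related genes 1 rose and 2 fell (median -0.03), with Dnm1 at 0.16 (limma adjusted p = 0.0076), Mfn1 at -0.11 (adjusted p = 0.016) and Opa1 at -0.12 (adjusted p = 0.023). The calls of Mfn1 and Opa1 were lost in 2 and 4 of 16 alternatives. Without KO188 replicate 2 or any 1 WT replicate, 1 of the 9 fell. Of 10 small GTPase genes 0 rose and 4 fell in limma (median -0.10), namely Ran (-0.25), Rac1 (-0.14), Nras (-0.22) and Arf1 (-0.14). The call of Arf1 was lost in 4 of 16 alternatives. At an unadjusted p under 0.05, 6 of the 10 passed.

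Markers of other cells that could carry IRG transcripts or interferon were read beside these results. Of 9 macrophage markers 2 rose, Mpeg1 (1.32), a pore-forming protein gene that interferon can also raise, and Mertk (0.79), a receptor gene of phagocytes. Mpeg1 read 5.72 in WT, under the guide, so its size is inexact. The other 7 did not pass, and Ptprc, the pan-leukocyte gene, read 6.23 in KO188 and 6.25 in WT, with Adgre1 at 5.26 in KO188 and 5.24 in WT, both under the receptor guide. At an unadjusted limma p under 0.05, 5 of the 9 macrophage markers passed. The summed level of the 9 genes, Mpeg1 and Mertk included, ran from 61.1 to 61.8 over the KO188 arrays and from 59.5 to 59.8 over the WT arrays. Of 11 T and NK cell markers 0 passed limma's test, with 1 at an unadjusted p under 0.05. The summed level was 66.7 to 68.2 in KO188 and 67.7 to 68.0 in WT. Of 3 B cell markers 0 passed limma's test, with 0 at an unadjusted p under 0.05, and of 5 endothelial markers only Kdr rose (0.24, limma adjusted p = 0.021), at levels under the guide in both groups, a call lost in 5 of 14 alternatives that tested it, among them those without KO188 replicate 1 or any 1 WT replicate. Stromal markers rose in 9 of 12, with Alpl (2.08), Pdgfra (0.87), Col3a1 (0.43) and Cxcl12 (0.40) first by p. Without KO188 replicate 2, 2 T and NK markers and 1 B marker were called lower, without KO188 replicate 3 1 B marker, and without KO188 replicate 1 1 macrophage marker. The part of Mpeg1, Mertk or any change in cell make-up in the IRG difference was not tested.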

How the data were processed

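The authors deposited 1 log2 value per probe set and array (35556 probe sets, 6 arrays). Per the submitters' processing notes, Affymetrix Expression Console, Partek and RMA were used, with no version. Their genome build and probe annotation are not given in the sources. Probe sets were named through GEO's platform annotation: 21789 have 1 symbol, 1621 several and 12146 are not listed. For genes with several probe sets the one with the highest 6-array mean was used, leaving 19938 genes. KO188 was set against WT in R 4.3.3 by lmFit and eBayes of limma 3.58.1 (KO188 minus WT, no covariate, Benjamini-Hochberg over all genes, threshold 0.05), which was tested on simulated data. The receptor guide, members, lists and the rule for named genes were chosen with earlier results of these data known. Named were all members, the other IRG genes and both signalling lists in full, up to 4 genes of each other list by lowest p, and the 3 nearest genes per member. Further genes were named as markers, as neighbours, for a level near the guide or because a count was small, after their values were seen. Start windows came from RefSeq (GRCm38.p6). A planned comparison of protein sequences was not run. The replicate numbers did not pair the samples: deviations of same-numbered arrays correlated at 0.02, 0.01 and -0.03. Alternatives changed the scaling, dim-gene filter, probe set choice, variance prior, array weights, replicate block and single arrays. Python 3.11.15 and matplotlib 3.10.9 made the figures. The number of arrays limits the precision. A withheld item is not reported here.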

Additional observations from a re-analysis of the deposited data

Results flagged for a closer look

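Signals above the WT level were present on 6 probe sets that the comparison of single genes leaves out because the annotation gives them 2 symbols, at least 1 of them an IRG gene. The log2 difference (KO188 minus WT) was 3.14 on the probe set of Irgm2 and Igtp, and 2.25 and 2.03 on the probe sets of Tgtp2 and Tgtp1. It was 2.49 on a probe set that names the IRG gene Ifi47 together with the olfactory receptor gene Olfr56, at 11.61 ± 0.03 in KO188 and 9.12 ± 0.03 in WT (SD, n = 3 each). It was 1.34 and 1.29 on the probe sets of 9930111J21Rik1 and 9930111J21Rik2. On all 6 every KO188 array lay above every WT array, as in 18.8% of the tested genes, a share that leaves out such shared probe sets. None of these signals can be given to 1 gene.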

How the results depend on the processing

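Over 16 alternatives 61 genes outside the members were followed, those named by the rule and the neighbours that passed. Of these, 51 kept their side of the threshold and their direction where called, 10 lost a call in some, 0 gained one and 0 reversed. Gbp2b was not among the 61. The members, which were not tested, kept their direction, and their differences ran from 3.62 to 3.77 for Iigp1, 1.39 to 1.47 for Irgm1, 4.58 to 4.67 for Gm12250 and 3.67 to 3.84 for Gm4951. Their median was 3.68 with median centring and 3.72 to 3.74 with any 1 array left out. The scaling moved the split of all calls: 30.8% were higher with median centring, against 44.5% as deposited. Counts of calls within lists that moved included the following, and the cause was not tested. With median centring, the calls were 2 higher ubiquitin and autophagy factors, 7 lower small GTPases, 2 lower macrophage markers, 1 lower T and NK, 1 lower B and 1 lower endothelial marker, and 1 higher and 3 lower neighbours. With quantile normalization they were 2 higher ATG8 genes, 2 lower macrophage markers, 1 lower T and NK, 1 lower B and 1 lower endothelial marker, and 2 lower neighbours. With the variance trend they were 2 higher ATG8 genes, 7 lower small GTPases and 1 lower macrophage marker, and array weights also gave 1 lower macrophage marker. The mean of probe sets left 1 lower ATG8 gene. Leaving out genes at or below the receptor guide gave 1 lower macrophage and 0 higher endothelial markers. Leaving out genes below the 50th percentile left 1 higher other IRG gene, 3 higher type I signalling genes and 0 lower gamma-leaning targets, since fewer genes were tested.

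The replicate numbers share only a number. The replicate block gave 5019 calls over all genes, against 5937 without it. Under the block there were 1 lower ATG8 gene, 2 higher ubiquitin and autophagy factors, 0 lower dynamin-related genes, 0 higher endothelial markers and 1 higher neighbour. With 1 array left out in turn, calls over all genes ran from 4835 to 5553. Lower type I signalling genes ran from 0 to 1, lower ATG8 genes from 1 to 2, lower dynamin-related genes from 1 to 2 and higher ubiquitin and autophagy factors from 2 to 3. Higher GBP genes ran from 7 to 8, lower small GTPases from 3 to 5 and higher stromal markers from 8 to 9. Lower macrophage markers ran from 0 to 1, lower T and NK markers from 0 to 2, lower B markers from 0 to 1 and higher endothelial markers from 0 to 1, while neighbours ran from 1 to 2 higher and from 1 to 2 lower. Neighbours were added after seeing the data. Dim levels and 3 arrays per group limit the precision.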
